A study of Homo sapiens with 9 samples.

Results

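The RNA-seq library of 293T cells that overexpressed ZBTB7A was compared with the control library and with 7 libraries that each overexpressed another transcription factor (TF). A gene was taken as particular to the ZBTB7A library when its CPM (counts scaled to library size by the TMM method) lay outside the range of all 8 other libraries. ZBTB7A itself and the 7 other inserted TF genes were left out. Genes with a mean of 0.5 CPM or more over the 9 libraries were counted as measured. Of these 15461 genes, 2767 met the rule, with 1107 above and 1660 below the range. The rule fixes these counts and says nothing of chance, so they were read against the counts that the same rule gave for each of the other 8 libraries.

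The study asked whether TFs that bind conserved lncRNAs (CLB_TFs) alter the expression of those lncRNAs. 293T is a transformed line of human embryonic kidney. The cells were transfected for 48 h with a lentiviral expression plasmid that carried EGFP and, under the EF1A promoter, the human ORF of 1 TF. ZBTB7A, NRF1, E2F4 and EGR1 were the CLB_TFs, and NKX2-8, TFCP2, RORA and HOXA11 served as control TFs. The control library is labelled blank, whereas the methods name an empty control plasmid. RNA was bulk RNA from the whole transfected culture, so a shift in the share of cells and a shift in RNA per cell cannot be told apart. Each condition had 1 library. No replicate check and no p-value across genes was therefore possible, and the values describe these 9 libraries.

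ZBTB7A, also known as LRF or Pokemon, is a BTB/POZ zinc finger TF that binds GC-rich promoters. Its BTB domain recruits corepressor complexes that carry histone deacetylases, and it is known mainly as a repressor, with the fetal globin genes, tumour suppressor genes and glycolytic genes among its described targets. Lower genes were therefore described in as much detail as higher ones.

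Promoter sequences are shown first for the members with the clearest change or with a match to the motif of the factor. GACCACC, the core of a motif known for ZBTB7A from in vitro selection, and CCGGAAGTG, an element of many promoters that is bound by ETS factors, were searched as exact letters on both strands. In the RefSeq promoter table, which spans 250 bases before to 50 after each gene start, 2.98% of 35116 promoters held GACCACC and 2.36% held CCGGAAGTG. Of 39 named protein-coding genes 19 had an entry there, and 2 of these 19, MAP4K1 and TTYH1, held a match. Both genes were below the other 8 libraries, but the match was not particular to lower genes. In the 500 bp before the gene start (GRCh37), a longer window, GACCACC was present in 5.54% of the 13207 measured protein-coding genes. Of those at least 1.5-fold above all 8 other libraries, 2 of 14 (14.3%) held it, a share that rests on 2 genes. Of those at least 1.5-fold below them, 2 of 21 (9.52%) held it. This window was set from GENCODE gene starts and not from the RefSeq table, so these 2 need not be MAP4K1 and TTYH1. The promoters of MAP4K1, TTYH1 and CHRM4 are given 5′ to 3′ from RefSeq (GRCh38.p14). CHRM4 was the receptor gene with the largest ratio to the control library among the genes named above the range. Letters of GACCACC or of its reverse complement GGTGGTC are in capitals. MAP4K1 lies on the minus strand at chr19:38617904-38618203, TTYH1 on the plus strand at chr19:54415214-54415513 and CHRM4 on the minus strand at chr11:46391727-46392026.
MAP4K1: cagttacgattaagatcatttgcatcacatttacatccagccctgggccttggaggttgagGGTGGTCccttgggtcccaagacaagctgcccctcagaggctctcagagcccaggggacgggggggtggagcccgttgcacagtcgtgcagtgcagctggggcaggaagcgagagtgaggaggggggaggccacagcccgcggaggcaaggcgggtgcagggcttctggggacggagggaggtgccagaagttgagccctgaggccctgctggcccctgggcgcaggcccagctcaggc
TTYH1: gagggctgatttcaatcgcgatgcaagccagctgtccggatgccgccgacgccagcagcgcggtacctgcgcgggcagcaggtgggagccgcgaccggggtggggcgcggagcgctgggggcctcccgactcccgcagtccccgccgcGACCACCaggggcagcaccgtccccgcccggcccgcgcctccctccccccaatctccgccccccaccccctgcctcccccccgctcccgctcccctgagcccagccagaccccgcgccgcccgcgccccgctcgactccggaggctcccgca
CHRM4: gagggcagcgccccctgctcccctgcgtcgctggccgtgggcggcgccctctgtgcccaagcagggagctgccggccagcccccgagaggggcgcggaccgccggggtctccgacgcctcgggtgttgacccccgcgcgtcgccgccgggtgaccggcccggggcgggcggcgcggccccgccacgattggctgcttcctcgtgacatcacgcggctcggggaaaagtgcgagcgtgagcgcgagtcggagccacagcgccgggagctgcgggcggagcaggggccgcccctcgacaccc
The match began 189 bases before the start of MAP4K1, on the opposite strand, and 102 bases before the start of TTYH1, on the same strand. The CHRM4 promoter held neither motif. A match is a run of letters and not a measured binding site.

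The ZBTB7A transcript was abundant in its own library. It had 68844 counts (4757 CPM) in the ZBTB7A library and 560 counts (30.45 CPM) in the control library, a ratio of 156.2 with a 95% interval of 143.8 to 170.1 (exact conditional binomial, as for all intervals given here, which cover counting error only). In the 8 other libraries it ranged between 463 and 1436 counts, with the highest value, 80.38 CPM, in the E2F4 library. The counts hold reads of the plasmid insert as well as of the endogenous gene, which lies on the minus strand at chr19:4043301-4066897 (GRCh37, as for all gene positions given here). The ZBTB7A library had 14177970 counts and the 8 others 14706961 to 18915400, so the ZBTB7A library was the shallowest and its low counts carry the widest error. It held a count for 23564 genes, against 23344 to 26296 in the 8 others, with the highest numbers in the NRF1 and EGR1 libraries.

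Other inserted TFs bore on the labels. HOXA11, a homeodomain factor, had 1904 counts (131.6 CPM) in the ZBTB7A library, against 48.24 to 67.47 CPM in the 7 libraries without its insert, and the ratio to the control library was 1.95 (1.814 to 2.096). The neighbouring HOXA10 (95.2 CPM), HOXA13 (94.7 CPM) and HOXA11-AS (34.0 CPM) were inside the ranges of the 8 other libraries, which were 87.8 to 112, 80.7 to 121 and 27.5 to 44.6 CPM. The source of the extra HOXA11 counts was not tested. TFCP2 had 45.88 CPM in the ZBTB7A library and 9812 counts (533.4 CPM) in the control library, while the median of the libraries without its insert was 43.19 CPM. The 293T markers NEFL (262 CPM), VIM (965 CPM), KRT18 (81.1 CPM) and LIN28B (85.2 CPM) were present in the ZBTB7A library, and 3 of the 8 markers were below the range. NEFM had 297 CPM in the ZBTB7A library, against 300 to 489 CPM in the 8 others. INA had 35.1 CPM, against 35.3 to 68.3 CPM, and VIM 965 CPM, against 995 to 1230 CPM. The 10 leukocyte markers summed to 2.695 CPM in the ZBTB7A library and 2.718 CPM in the control library, with PTPRC at 0 in the ZBTB7A library. The 8 fibroblast markers summed to 30.96 CPM in the ZBTB7A library and 33.0 CPM in the control library. For the 6 hepatocyte markers the sums were 0.2073 CPM in the ZBTB7A library and 0.05437 CPM in the control library, and for the 6 matched of 7 keratinocyte markers 12.37 CPM in the ZBTB7A library and 15.49 CPM in the control library. KRT5, KRT14 and KRT1 were at 0 in the ZBTB7A library.

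Against the control library alone, the ZBTB7A library appeared to have many more higher than lower genes. In all, 378 genes (2.44% of those measured) were at least 2-fold higher and 112 (0.724%) at least 2-fold lower. Of the protein-coding genes 277 were higher and 36 lower, and of the lncRNAs 94 were higher and 75 lower. The median log2 ratio of all measured genes was -0.03.

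Most of the higher genes were not particular to ZBTB7A. Of the 378, 287 (75.9%) lay inside the range of the 8 other libraries and 91 (24.1%) above it. The control library was the lowest of the 9 for 188 of them (49.7%). The NRF1 library was also at least 2-fold higher than the control for 282 of the 378, the EGR1 library for 190, the E2F4 library for 171 and the NKX2-8 library for 158. All these comparisons share the control library. SCRT1, a neuronal zinc finger repressor, had 81 counts in the ZBTB7A library and 2 in the control library, a log2 ratio of 4.64, and yet was inside the range. When the 7 other TF libraries, averaged, took the place of the control, 39 genes were at least 2-fold higher and 202 at least 2-fold lower. With the average of the 4 control TF libraries, 161 were higher and 128 lower. The balance thus depended on the libraries used for comparison, and the majority turned with the first of these averages only.

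A smaller share of the lower genes lay inside the range, 28.6% against 75.9% of the higher genes. Of the 112 genes lower than the control, 80 (71.4%) were below the range of the 8 others, and for 57 (50.9%) no other TF library was 2-fold lower than the control. For the higher genes the matching numbers were 91 (24.1%) and 41 (10.8%). However, only 2 of the 112 lower genes reached a mean of 5 CPM, against 33 of the 378 higher genes. Both rules use the same ZBTB7A count, so the shares outside the range are partly fixed by the choice of genes. They were not taken for the other libraries, and the difference between the shares was not tested.

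**Figure D1:**
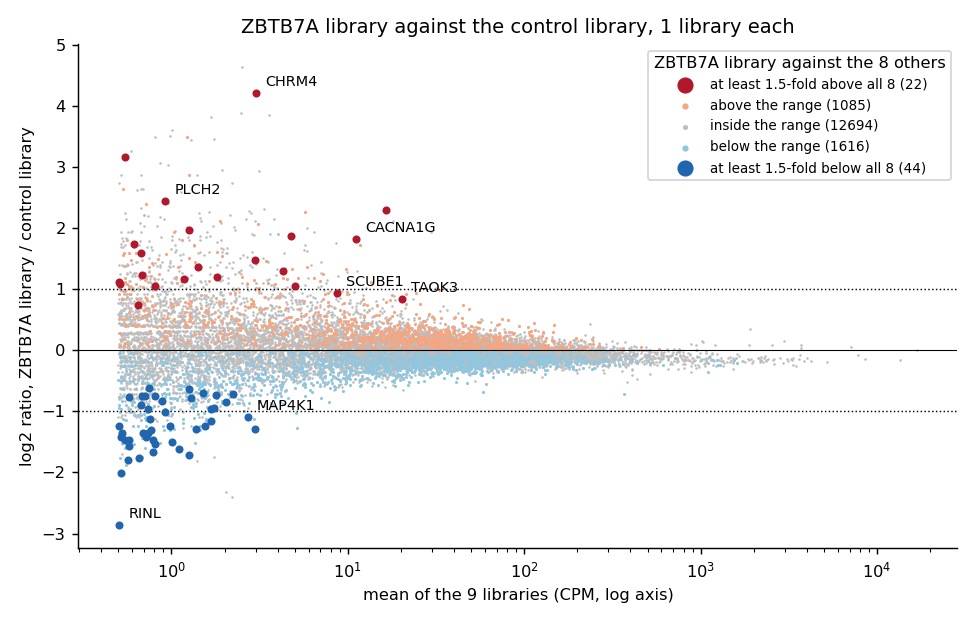
Log2 ratio of the ZBTB7A library to the control library against the mean CPM of the 9 libraries (log axis), 1 point per measured gene, with dotted lines at 2-fold. Large points mark the 22 genes at least 1.5-fold above and the 44 at least 1.5-fold below all 8 other libraries, and the 44 lie at a mean under 5 CPM.

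Over the whole table, the ZBTB7A library was above the range for 7.16% of genes and below it for 10.7%. Under the same rule, each of the other libraries was above its own 8 others for 6.99% to 18.0% of genes, with a median of 10.62%, and below for 5.17% to 23.8%, with a median of 8.455%. The ZBTB7A library thus had fewer genes above than 7 of the 8 other libraries and more below than 6 of them. Genes above the range made up 40.0% of those outside it. This split depended on the scaling, since the share was 48.9% with DESeq2 size factors (1332 above and 1390 below) and 55.4% with library totals (1546 above and 1244 below).

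A margin of 1.5-fold past the nearest library left 22 genes above (0.142%) and 44 below (0.285%). The other 8 libraries gave 3 to 464 above and 22 to 156 below by that margin. The ZBTB7A library was in the middle of these counts, with 4 libraries higher and 4 lower for the genes above. Genes just past the margin were VWA5B2 with a log2 ratio to the nearest library of 0.60 and H2AC20 with -0.59, and genes just short of it were MYO15A with 0.58 and ITGB2 with -0.57. The NRF1 library was the nearest for 10 of the 22 genes above, and without it in the range 49 genes passed.

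The genes above and below by this margin differed in depth. The 22 above had 14 to 638 counts in the ZBTB7A library, with a median of 44. The 44 below had 0 to 18 counts with a median of 4, and 37 of them had fewer than 10. The counting interval of the ratio to the nearest library excluded 1 for 13 of the 22 and for 2 of the 44. By that interval alone, whatever the fold, 84 genes were above all 8 others (0.543%) and 68 below (0.44%), and 82 and 66 of these were protein-coding. The interval rule was not applied to the other 8 libraries, so these counts have no background. The median ratio to the nearest library was 1.18 for the 84 and 0.9 for the 68. Under library totals the interval gave 129 above and 36 below, of which 73 and 27 were shared with the main scaling.

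**Figure D2:**
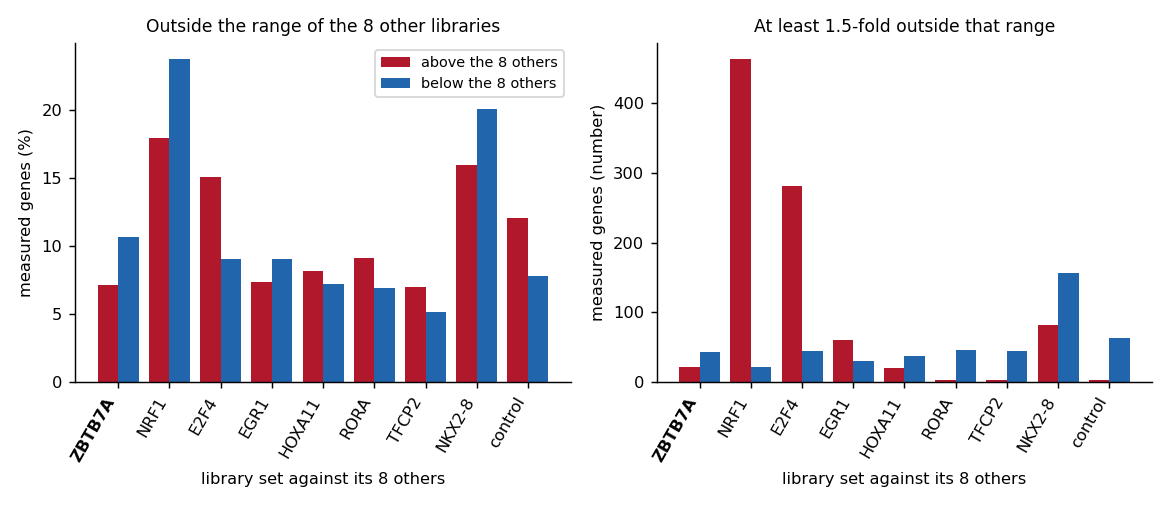
Measured genes outside the range of the 8 other libraries, as a percentage (left) and as a number past a 1.5-fold margin (right), for each of the 9 libraries in turn. The ZBTB7A library had 7.16% above and 10.7% below, and 22 and 44 genes past the margin, which is within the spread of the other 8 libraries.

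CHRM4 (chr11:46405339-46413326), the muscarinic acetylcholine receptor M4, had 9.12 CPM in the ZBTB7A library, against 0.381, 1.61 and 4.70 CPM as the lowest, median and highest of the 8 others. The control library was the lowest of these, which gave a log2 ratio of 4.20 to the control, whereas the ratio to the nearest library, E2F4, was 1.94 (1.464 to 2.581). CACNA1G (chr17:48638076-48704835), a pore-forming subunit of T-type calcium channels, had 26.5 CPM, against 5.26, 8.67 and 16.6 CPM, with a ratio to the NRF1 library of 1.596 (1.36 to 1.874). That both genes lay above every other library follows from the rule that picked them.

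HTR1D, a serotonin receptor, had 3.11 CPM in the ZBTB7A library, against 0.707, 1.01 and 1.64 CPM in the others (lowest, median, highest). GRIK4, a kainate-type glutamate receptor subunit, had 5.53 CPM, against 1.90, 2.49 and 3.59 CPM. PLCH2, a phospholipase C that is activated by calcium, had 2.90 CPM, against 0.112, 0.520 and 1.64 CPM. The nearest library was NRF1 for each of these 3 genes, with ratios of 1.90 (1.145 to 3.202), 1.54 (1.081 to 2.2) and 1.77 (1.06 to 3.007) in that order. GRIK4 fell short of the margin with library totals (log2 ratio to the nearest library of 0.53).

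SCUBE1, a secreted glycoprotein with EGF-like repeats, had 18.0 CPM in the ZBTB7A library, against 5.62, 6.64 and 10.2 CPM in the 8 others, and the ratio to the NRF1 library was 1.76 (1.44 to 2.153). FNDC5, the precursor of irisin, had 10.2 CPM, against 2.72, 4.20 and 5.93 CPM, with the lowest value in the control library. ANXA3, a calcium-dependent phospholipid-binding protein, had 9.05 CPM, against 2.93, 4.53 and 5.62 CPM, and the ratio to the RORA library was 1.61 (1.226 to 2.125). For these 3 genes the log2 ratio to the average of the 7 other TF libraries was 1.30, 1.23 and 0.98, and to the control library 0.93, 1.87 and 1.05.

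Apart from TAOK3, the remaining protein-coding genes named above the margin had under 3 CPM. CCDC178, a coiled-coil protein, had 25 counts (1.73 CPM) in the ZBTB7A library and between 2 and 12 counts in the 8 others. FAM163A had 2.97 CPM, against 0.784, 1.19 and 1.70 CPM, and ZNF469, a zinc finger protein linked to corneal thickness, had 2.35 CPM, against 0.515, 1.02 and 1.46 CPM. The interval of ZNF469 against the NKX2-8 library was 0.9144 to 2.888 and so held 1. TBX4, a T-box factor of the hindlimb and lung, had 21 counts in the ZBTB7A library, with 14 in the nearest, EGR1, and 1 in the control. The gene ENSG00000278996, which has no symbol in the annotation and lies on an unplaced scaffold, was singled out after its values were seen, with 44.1 CPM against 8.49, 9.48 and 21.7 CPM, a ratio to the NRF1 library of 2.03 (1.78 to 2.32).

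**Figure D3:**
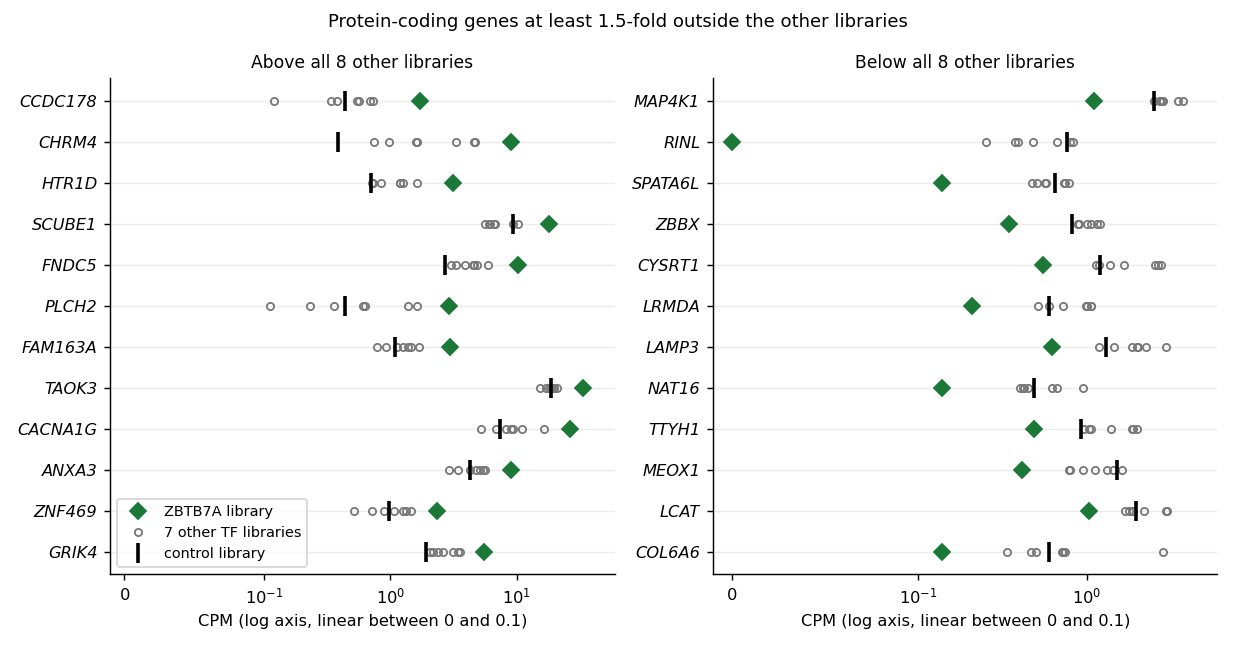
CPM of the 12 protein-coding genes furthest above (left) and the 12 furthest below (right) all 8 other libraries, with the ZBTB7A library as diamonds, the 7 other TF libraries as open circles and the control library as bars. CHRM4 reached 9.12 CPM in the ZBTB7A library against at most 4.70 CPM elsewhere, and RINL had no count in the ZBTB7A library.

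Of the 12 named protein-coding genes below the margin, MAP4K1 had the most counts in the ZBTB7A library. This kinase (HPK1, chr19:39078281-39109522), a negative regulator of T-cell receptor signalling, had 16 counts (1.11 CPM) in the ZBTB7A library, against 2.50, 2.77 and 3.72 CPM in the 8 others, which had 42 to 59 counts. The nearest library was the control, with a ratio of 0.4421 (0.2336 to 0.7955) and a log2 ratio of -1.10. It was the only one of the 12 whose interval excluded 1.

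RINL (chr19:39358470-39368915), a guanine nucleotide exchange factor of the RIN family, had 0 counts in the ZBTB7A library and 4 to 14 counts in the 8 others. A count of 0 allows up to 3 counts, or 0.207 CPM. The control library had 14 counts (0.761 CPM), and the interval of the ratio to it reached from 0 to 0.3831. Against the lowest of the others, NRF1, the interval reached from 0 to 1.66. RINL was thus below the range, but the distance to the nearest library was not resolved at this depth.

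The other named genes below the margin had 2 to 15 counts in the ZBTB7A library. SPATA6L, a relative of a sperm connecting-piece gene, had 0.138 CPM, against 0.476, 0.612 and 0.785 CPM, and the ratio to the HOXA11 library was 0.2905 (0.03005 to 1.456). LAMP3, a lysosomal membrane protein of mature dendritic cells, had 0.622 CPM, against 1.18, 1.94 and 2.96 CPM. TTYH1, a membrane protein of the tweety family expressed in neural cells, had 0.484 CPM, against 0.924, 1.23 and 1.99 CPM. MEOX1, a homeodomain factor of the somites, had 0.415 CPM, against 0.785, 1.23 and 1.62 CPM. These 4 genes lay below each of the 8 libraries by the rule that picked them, but with intervals that held 1.

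LCAT, the plasma enzyme that esterifies cholesterol, had 1.04 CPM in the ZBTB7A library, against 1.69, 1.92 and 2.99 CPM in the others. COL6A6, a collagen VI chain, had 2 counts (0.138 CPM) and a range of 0.336 to 2.84 CPM in the others, and the ratio to the E2F4 library was 0.4115 (0.04061 to 2.301). The same held for NAT16, an acetyltransferase relative, with 2 counts and a ratio to the TFCP2 library of 0.3449 (0.03496 to 1.811), and for LRMDA, a melanocyte differentiation gene, with 3 counts and a ratio to the TFCP2 library of 0.4023 (0.07006 to 1.612). ZBBX, a B-box zinc finger gene, had 0.345 CPM, against 0.816, 0.947 and 1.20 CPM, and CYSRT1, a cysteine-rich protein, had 0.553 CPM, against 1.14, 1.52 and 2.77 CPM. LCAT and COL6A6 no longer passed the margin with a prior count of 5.

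At higher expression the shifts were smaller and rested on more counts. For this the 8 protein-coding genes in each direction with the largest margin and a mean of 20 CPM or more were taken, a choice made after values were seen. Their intervals come from the same counts that picked them, so intervals that exclude 1 are favoured by the choice. TAOK3 (chr12:118587606-118810712), a STE20-family kinase of stress signalling, had 33.7 CPM (488 counts) in the ZBTB7A library, against 15.3, 18.7 and 20.9 CPM in the 8 others, and it was the only gene of this level past the 1.5-fold margin, with a ratio to the NKX2-8 library of 1.61 (1.397 to 1.865). SEMA6B (chr19:4542605-4581788), a transmembrane semaphorin of axon guidance, had 55.0 CPM, against 22.8, 29.1 and 37 CPM, a ratio of 1.49 (1.331 to 1.658) to the NKX2-8 library. The control library was inside the range of the TF libraries for both genes.

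GALNT7, a transferase of O-linked glycosylation, had 60.5 CPM in the ZBTB7A library, against 38.1, 43.0 and 47.1 CPM in the others. SLC12A7, the potassium-chloride cotransporter KCC4, had 52.2 CPM, against 35.3, 38.3 and 41.9 CPM, and TSPAN18, a tetraspanin, had 38.8 CPM, against 25.6, 27.0 and 32.1 CPM. EPOP, a Polycomb-associated protein, had 42.6 CPM, against 29.1, 33.1 and 35.2 CPM. CHMP6, an ESCRT-III subunit, had 28.9 CPM, against 19.6, 21.7 and 23 CPM, and ZMYM2, a zinc finger protein found with the LSD1 and CoREST corepressor, had 62.6 CPM, against 48.6, 51.8 and 52.3 CPM. The ratios of these 6 genes to the nearest library ran between 1.20 and 1.29, with intervals above 1 under each of the 3 scalings.

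Of the abundant genes below the range, BRSK1, a kinase of neuronal polarity, had 15.4 CPM in the ZBTB7A library, against 19.0, 21.6 and 27.0 CPM. RGS16, which speeds the shut-off of G protein signalling, had 18.5 CPM, against 22.7, 26.3 and 29.2 CPM. IFT172, a subunit of the intraflagellar transport complex of cilia, had 37 CPM, against 45.2, 47.0 and 49.6 CPM. The ratios of these 3 to the nearest library were 0.81 (0.6834 to 0.9634), 0.82 (0.6928 to 0.9603) and 0.82 (0.7297 to 0.9158).

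ESS2, a splicing-associated protein of the DiGeorge region, had 48.6 CPM in the ZBTB7A library, against 56.9, 63.3 and 69.6 CPM. ST6GALNAC4, a sialyltransferase, had 27.8 CPM, against 33.1, 34.5 and 37.5 CPM, and ATOX1, the copper chaperone, had 24.3 CPM, against 28.7, 29.3 and 34.5 CPM. CAPN10, a calpain protease, had 20.4 CPM, against 24.2, 26.8 and 31.6 CPM, and STK16, a Golgi-associated kinase, had 27.4 CPM, against 32.3, 34.4 and 37 CPM. The 8 abundant genes above kept an interval above 1 with library totals, whereas 5 of the 8 below kept one below 1.

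Of 10 genes described elsewhere as repressed by ZBTB7A 8 were measured, and 0 of the 8 was 2-fold higher or lower than in the control library or, with TMM, outside the range. With library totals 1 of the 8, RB1, was above the range. Their median log2 ratio to the control library was -0.09, beside -0.03 for all genes. HBG1 and HBG2, the fetal globin genes, had 0 counts in the 9 libraries, so repression of them could not be seen here.

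Of the glycolytic members, SLC2A3, a glucose transporter, had 45.2 CPM in the ZBTB7A library, against 42.7, 54.6 and 64.3 CPM in the 8 others. The highest of these was the control library, with a log2 ratio of -0.51. PFKP, the platelet phosphofructokinase, had 149 CPM, against 130, 150 and 165 CPM, and PKM, pyruvate kinase, had 2020 CPM, against 1930, 2210 and 2440 CPM. All 3 lay within the range.

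Of the members that curb growth or survival, CDKN2A, which encodes INK4A and ARF, had 279 CPM in the ZBTB7A library, against 278, 299 and 330 CPM in the 8 others. CDKN1A, the inhibitor p21, had 72.3 CPM, against 54.9, 65.1 and 85.9 CPM, and its ratio to the control library was 1.29 (1.179 to 1.402). RB1, the retinoblastoma protein, had 65.4 CPM, against 55.1, 62.9 and 66.3 CPM. BCL2L11, the death-promoting BIM, had 23.3 CPM, against a median of 26.4 and a highest value of 38.3 CPM, with the NKX2-8 library below the ZBTB7A library, and MCAM, an adhesion molecule of melanoma cells, had 23.5 CPM, against 21.4, 26.9 and 30.2 CPM. These 5 genes overlapped with the other libraries.

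**Figure D4:**
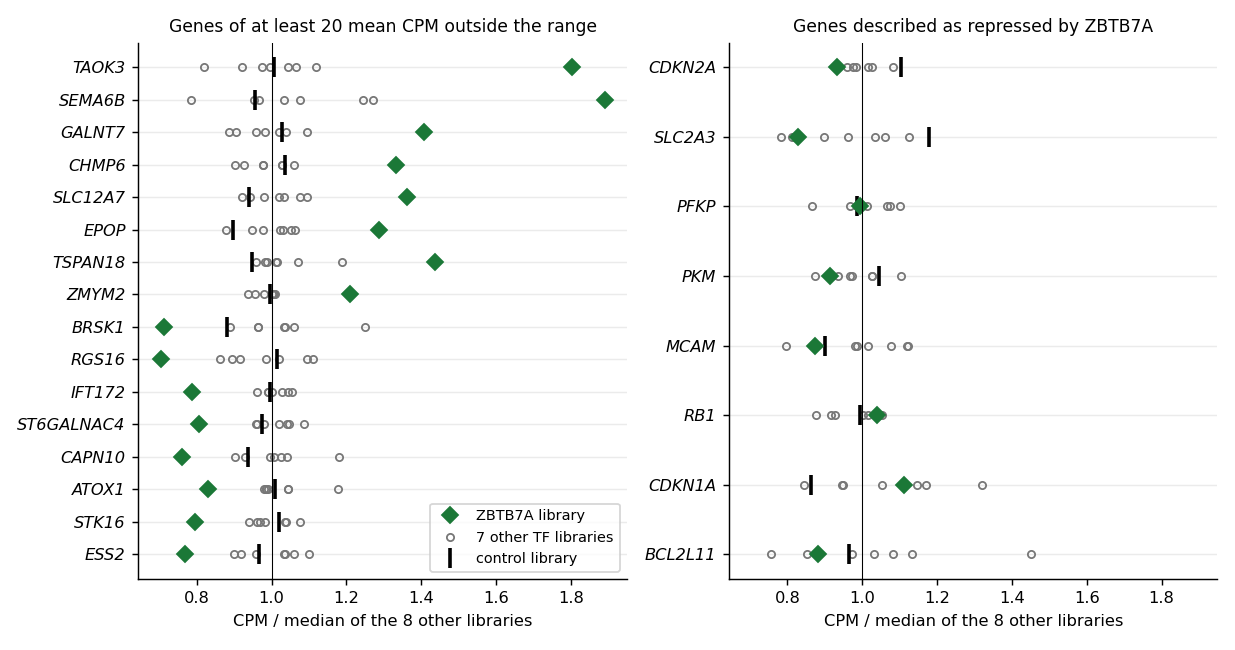
CPM divided by the median of the 8 other libraries for the 16 genes of at least 20 mean CPM furthest outside the range (left) and for 8 genes described as repressed by ZBTB7A (right), with the ZBTB7A library as diamonds, the 7 other TF libraries as open circles and the control library as bars. With TMM, the 8 genes on the right lie inside the spread of the other libraries.

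Lists are given by their counts and medians, beside the all-gene shares of 7.16% above and 10.7% below the range. Library totals in place of TMM gave an all-gene median of 0.04, against -0.03 with TMM, and the medians of 8 of 29 lists, which lay just below 0 with TMM, were above 0 with library totals. When the average of the 7 other TF libraries was the reference, 8 of 29 medians also had another sign and 12 moved by more than 0.1. The wider glycolysis list was slightly low. Of 22 genes 0 was 2-fold higher or lower than in the control library, 3 were below the range and 0 above, and the median log2 ratio was -0.17 to the control library and -0.09 to the average of the 7 other TF libraries. ENO2, the neuronal enolase, had 60.9 CPM in the ZBTB7A library, against 63.3, 78.1 and 90.1 CPM in the others. ALDOC, aldolase C, had 31.4 CPM, against 33.0, 35.9 and 43.0 CPM, and HK1, hexokinase 1, had 260 CPM, against 264, 287 and 311 CPM. The intervals of these 3 against the nearest library held 1, and the share of 3 in 22 stands beside 10.7% of all genes.

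Genes of the corepressors and of related factors were mostly inside the range. Of 24 subunits of the NuRD, NCOR, SIN3 and BCOR corepressors, 3 were above the range and 1 below, with a median log2 ratio of 0.00 to the control. BCORL1, a BCL6 corepressor relative, had 98.1 CPM in the ZBTB7A library, against 69.9, 77.0 and 94.9 CPM. NCOR1 (144 CPM, against 126 to 142 CPM) and MBD2 (24.5 CPM, against 18.9 to 23.9 CPM) were just above the range, and MBD3 (105 CPM, against 109 to 133 CPM) was below it. Of 41 measured ZBTB and related BTB zinc finger genes, 5 were above and 4 below the range, with a median of 0.02. ZBTB38, ZBTB46 and ZBTB2 had 19.5, 13.5 and 22.8 CPM in the ZBTB7A library, against at most 17.5, 12.8 and 22.1 CPM elsewhere. ZBTB12 (15.6 CPM, against 17.9 to 22.7 CPM), BCL6B (11.7 CPM, against 12.4 to 18.4 CPM) and ZBTB39 (22.8 CPM, against 23.2 to 29.0 CPM) were below. ZBTB7C, the paralog, was 2-fold higher than in the control library, with 96 counts against 57, but inside the range.

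Few of the globin and erythroid genes were expressed. Of 17 genes 5 were measured and 7 had no count. EPOR, the erythropoietin receptor, had 17.8 CPM in the ZBTB7A library, against 10.2, 14.6 and 16.8 CPM in the others. BCL11A, the other main repressor of fetal globin, had 13.0 CPM, against 13.1, 15.2 and 17.7 CPM, and HBQ1, theta globin, had 8.02 CPM, against 8.70, 10.8 and 11 CPM. The median of the 5 was 0.36 to the control library and -0.20 to the 7 other TF libraries, which differ in sign. HBA1 was 2-fold higher than in the control library at 5 counts against 1.

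Signalling lists held single members outside the range. Of 23 Notch genes 1 was above, NOTCH1, with 57.8 CPM in the ZBTB7A library, against 34.7, 43.9 and 49.2 CPM. The control library was the lowest, and the ratio to the nearest library, NRF1, was 1.17 (1.064 to 1.296). DTX1 was 2-fold higher than in the control library but inside the range, and the Notch median was 0.07. Of 9 measured NF-kB targets 1 was above and 2 below, with a median of 0.17 to the control library and 0.00 to the 7 other TF libraries. NFKBIE, an inhibitor of NF-kB, had 18.9 CPM, against 11.1, 11.9 and 15.7 CPM, with a ratio to the NKX2-8 library of 1.20 (1.008 to 1.439). IER3 (21.2 CPM, against 22.8 to 36.2 CPM) and NFKB2 (80.5 CPM, against 81.8 to 98.5 CPM) were below. Of 24 Wnt and BMP/TGF-beta genes 1 was above and 0 below, with a median of -0.03. WNT6, a Wnt ligand, had 5.25 CPM, against 2.19, 3.21 and 4.75 CPM, and was 2-fold higher than in the control library.

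Stress and survival lists stayed near the all-gene values. Of 23 p53 targets 1 was above (TIGAR, 18.4 CPM, against 14.3 to 18.1 CPM) and 1 below (PHLDA3, 20.9 CPM, against 21.0 to 33.5 CPM), with a median of 0.04 to the control library and -0.13 to the 7 other TF libraries. Of 15 BCL2 family genes BID was above (37.9 CPM, against 32.6 to 36.4 CPM) and BCL2 (11.3 CPM, against 11.6 to 25.1 CPM) and MCL1 (152 CPM, against 153 to 172 CPM) were below, with a median of -0.10. Of 15 heat-inducible chaperones 1 was below, HSPA8 with 1020 CPM against 1040 to 1250 CPM, and the median was -0.04. Of 20 genes of the unfolded protein response and ATF4 2 were above, PSAT1 (270 CPM, against 213 to 267 CPM) and CHAC1 (10.7 CPM, level with the highest of the others after rounding), with a median of -0.04.

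Of 14 measured interferon-stimulated genes 2 were below, IFI6 (4.70 CPM, against 5.49 to 7.84 CPM) and OAS3 (1.38 CPM, against 1.69 to 4.04 CPM), with a median of 0.11 to the control library and -0.08 to the 7 other TF libraries. Of 24 immediate early genes, IER3 and ZFP36 (4.08 CPM, against 4.31 to 8.93 CPM) were below and 0 above, with a median of -0.05, and FOSL1 was 2-fold higher than in the control library at 36 counts against 18. Of 29 genes of cholesterol and fatty acid synthesis 2 were above, TM7SF2 (51.8 CPM, against 32.7 to 51.0 CPM) and MVD (76.0 CPM, against 59.4 to 71.6 CPM), and 1 below, FDFT1 (175 CPM, against 176 to 216 CPM). The median was -0.07 to the control library, and 0.00 with library totals. None of these lists had a member past the 1.5-fold margin.

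Of 35 cytoplasmic ribosomal protein genes 7 were below the range and 0 above, beside 10.7% and 7.16% of all genes. The median log2 ratio was -0.17 to the control library and -0.07 to the 7 other TF libraries, and with DESeq2 size factors 3 of the 35 were below. RPS28 had 469 CPM in the ZBTB7A library, against 485, 510 and 531 CPM, RPL27 1140 CPM, against 1170, 1290 and 1350 CPM, and RPS21 312 CPM, against 318, 330 and 346 CPM. The sum of the 35 was 60660 CPM in the ZBTB7A library, 57150 to 65880 CPM in the 7 other TF libraries and 68280 CPM in the control library, so the sum was inside the range of the TF libraries and the control library stood highest.

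Of 25 E2F and DNA replication genes 3 were below (PCNA, GINS2 and CDC45) and 1 above (GINS1), with a median of -0.11 to the control library and -0.09 to the 7 other TF libraries. PCNA, the sliding clamp, had 281 CPM in the ZBTB7A library, against 289, 296 and 315 CPM, GINS2 had 82.8 CPM, against 85.6, 88.4 and 93.6 CPM, and CDC45 had 96.7 CPM, against 98.2, 104 and 112 CPM. GINS1 had 51.5 CPM, against at most 50.1 CPM. Of 22 mitosis genes AURKB (109 CPM, against 115 to 131 CPM) and UBE2C (96.7 CPM, against 101 to 114 CPM) were below, with a median of -0.10 to the control library and -0.03 to the 7 other TF libraries, beside -0.03 for all genes in that comparison. Of 38 nuclear subunits of oxidative phosphorylation 2 were above (COX7A2 and SDHB) and 3 below, and NDUFV1 of complex I was the clearest, with 219 CPM in the ZBTB7A library, against 230, 252 and 267 CPM. The others below were NDUFS7 and ATP5F1B, and the median was -0.10 to the control library and 0.00 to the 7 other TF libraries. Of 13 mitochondrially encoded genes 0 was outside the range, with a median of 0.085 to the control library and -0.02 to the 7 other TF libraries.

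Replication-dependent histone genes had the lowest median against the other TF libraries. Of 11 measured 3 were below the range and 0 above, with a median of -0.205 to the control library and -0.36 to the 7 other TF libraries. H2AC6 had 3.66 CPM in the ZBTB7A library, against 4.12, 4.92 and 9.33 CPM, and H3C10 had 2.28 CPM, against 2.54, 3.09 and 4.10 CPM. H2AC20 had 4 counts (0.276 CPM), against 0.476, 0.816 and 1.27 CPM, and was 2-fold lower than in the control library. The intervals of these 3 against the nearest library held 1. Histone genes, like the alpha and gamma globin genes, have near-identical copies that can share reads, so their levels are uncertain.

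Neuronal genes were split. Of 24 measured 4 were 2-fold higher than in the control library, namely SCRT1, CPLX2, NEFH and GRIN1, and all 4 were inside the range. CPLX1, complexin 1, was above it with 24.2 CPM in the ZBTB7A library, against 13.1, 14.4 and 19.8 CPM, a ratio to the E2F4 library of 1.22 (1.053 to 1.423), and SYT1 had 13.5 CPM, against at most 12.7 CPM. CELSR3 (43.5 CPM, against 44.4 to 61.5 CPM), NEFM and INA were below. The median was 0.25 to the control library and -0.08 to the 7 other TF libraries.

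Among HOX genes, HOTTIP, a lncRNA at the end of the HOXA cluster, had 33 counts (2.28 CPM) in the ZBTB7A library, against 0.761, 1.10 and 2.02 CPM. Its ratio to the nearest library, NRF1, was 1.13 (0.6735 to 1.898), an interval that held 1. HOTTIP was the only one of 12 measured HOXA genes above the range, with a median of -0.10 for the list. It was 2-fold higher than in the control library, where it was lowest. HOXA11, left out of the 12 as an inserted gene, had 131.6 CPM, against 48.24 to 67.47 CPM in the 7 libraries without its insert. Of 26 genes of the HOXB, HOXC and HOXD clusters 1 was above, HOXC9 with 24.5 CPM against 17.8 to 22.4 CPM, and the median was -0.07. Of 22 cytoskeletal and extracellular matrix genes TAGLN (2.07 CPM, against at most 2.06 CPM) was above and SPARC (7.81 CPM, against 8.23 to 11.4 CPM) below, with a median of -0.05.

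**Figure D5:**
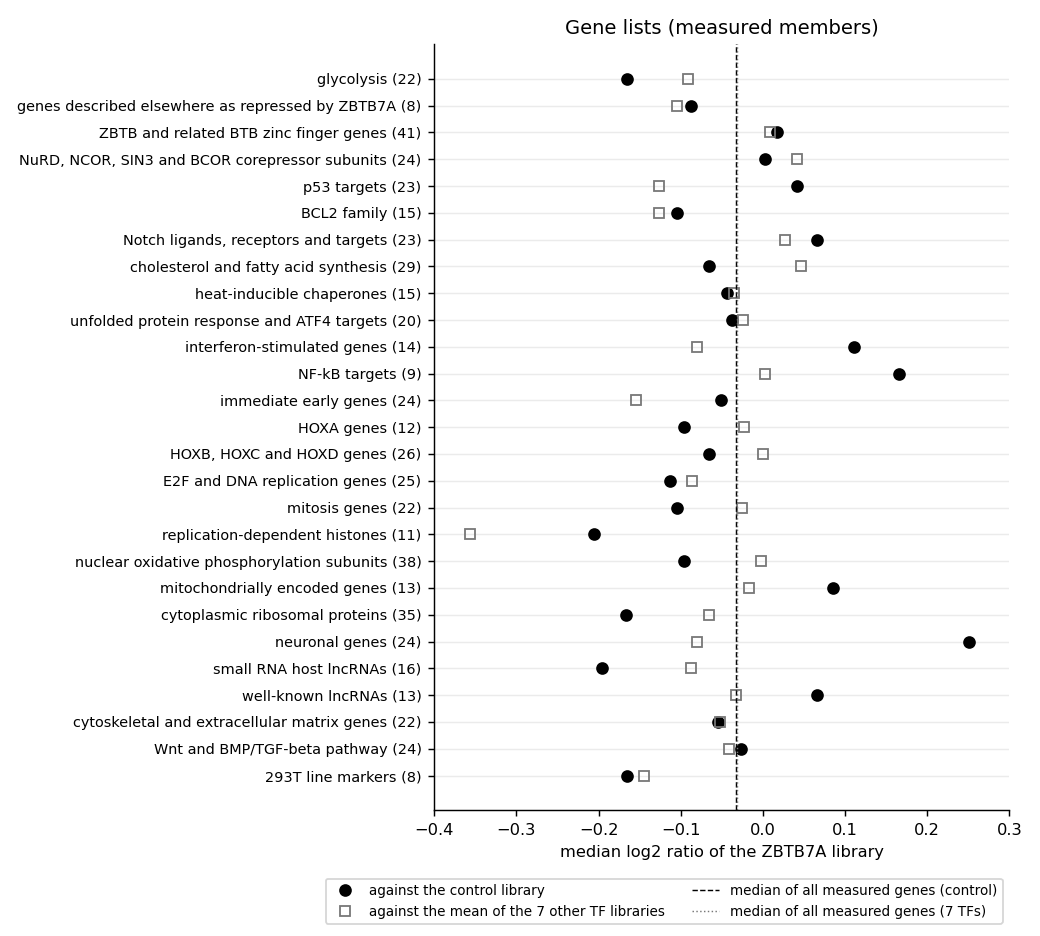
Median log2 ratio of the ZBTB7A library for 27 gene lists with at least 8 measured members (number in brackets), against the control library (filled) and against the average of the 7 other TF libraries (open). Dashed and dotted lines, which coincide at -0.03, mark the medians of all measured genes, and neuronal genes have 0.25 against the control but -0.08 against the other TF libraries.

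The size of change, taken as the absolute residual of the log2 ratio to the control library after regression on mean log2 CPM, had a median of 0.262 for 311 conserved lncRNAs and 0.304 for 1829 non-conserved lncRNAs. For 132 high-confidence conserved lncRNAs the median was 0.235, and at a level of 5 CPM or more it was 0.124 for 68 conserved and 0.165 for 231 non-conserved lncRNAs. Conserved lncRNAs were the more abundant, with a median of 1.74 CPM against 1.21 CPM. The regression takes out the mean trend with level but not the wider counting spread at low counts. The part of level in the difference between the medians was not tested. Of the 311, 17 (5.47%) were 2-fold higher and 10 (3.22%) lower than in the control library. By the range, 20 (6.43%) were above and 30 (9.65%) below. The shares of the 1829 non-conserved lncRNAs were 4.21%, 3.55%, 6.83% and 13.6% in that order. Those of all measured genes were 2.44%, 0.724%, 7.16% and 10.7%. With 1 library in each condition none of these differences was tested. For its CLB_TFs, ZBTB7A among them, the study reported greater change of conserved than of non-conserved lncRNAs, adjusted for abundance by linear regression. The medians of the residual here had the other order, and the study's measure and gene filter may differ from those used here.

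LncRNAs, 2140 of the 15461 measured genes, made up 23 of the 44 genes below and 6 of the 22 above the 1.5-fold margin. Of the measured lncRNAs 1.07% were below and 0.28% above by that margin, beside 0.285% and 0.142% of all genes. All 44 genes below had a mean under 5 CPM, and the medians of conserved and non-conserved lncRNAs were 1.74 and 1.21 CPM. Of the 4230 measured genes of any class with a mean of 0.5 to 5 CPM, 1.04% were below and 0.426% above by the 1.5-fold margin. Whether the split follows expression level was not tested. LINC02981 had 9 counts (0.622 CPM) in the ZBTB7A library, against 1.29, 1.62 and 2.33 CPM, SOX1-OT had 5 counts (0.345 CPM), against 0.714, 0.884 and 2.46 CPM, and C16orf95-DT and SEPSECS-AS1 had 2 counts each. LINC01389 (1.17 CPM, against at most 0.631 CPM), LINC01001 (0.967 CPM, against at most 0.568 CPM) and LINC02724 (1.59 CPM, against at most 1.01 CPM) were above. The intervals of these 7 lncRNAs against the nearest library held 1. Only 1 lncRNA was above and 2 below by the counting interval.

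Of 13 measured members of a list of well-known lncRNAs, HOTTIP was above the range and CYTOR below, with a median of 0.07. CYTOR, a cytoplasmic lncRNA raised in tumours that is not in the study's conserved set, had 0.829 CPM in the ZBTB7A library, against 1.26, 1.74 and 2.06 CPM, and was 2-fold lower than in the control library. CCND2-AS1 and IGF2-AS were 2-fold higher than in the control library but inside the range. HOTAIR had 15.6 CPM, against 6.37 to 16.5 CPM. Of 16 measured members of a list of small RNA host lncRNAs, which also held RMRP, 4 were below the range and 0 above. The list median was -0.20 to the control library and -0.09 to the 7 other TF libraries. ZFAS1 (61.5 CPM, against 64.3 to 70.1 CPM), SNHG15 (47.3 CPM, against 49.0 to 83.1 CPM), EPB41L4A-AS1 (22.5 CPM, against 23.3 to 29.2 CPM) and SNHG7 were these 4, and with library totals 1 of the 16 was below. RMRP, the RNA of RNase MRP and not a host of small RNAs, was 2-fold lower than in the control library. It had 16 counts against 74, but lay inside the range of the TF libraries.

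The 3 gene sets had motif shares within 1 percentage point of each other. In the 500 bp before the gene start (GRCh37), GACCACC was present in 5.59% of 948 protein-coding genes above the range, 6.08% of 1366 below and 5.54% of the 13207 measured. For CCGGAAGTG the shares were 2.43%, 2.93% and 2.88%, and the median GC content was 58.8%, 58.4% and 58.0%. The summed exon length had a median of 5694 bases for the genes above, 4510 for those below and 5153 for the measured protein-coding genes. Of 951 measured protein-coding genes of chromosome 19, 145 (15.2%) were below the range and 64 (6.73%) above, beside 10.3% and 7.18% of the measured protein-coding genes. Chromosomes 11, 21, 17 and X had like shares below, with 14.7%, 14.3%, 13.6% and 13.4%. Chromosome 19 is named because its share below was the highest. Shares by chromosome were not taken for the other libraries or with another scaling, so they have no background.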

How the data were processed

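Total RNA of 293T cells was sequenced in 9 libraries, 1 per condition. The authors used FastQC 0.11.2 for read quality, STAR 2.6.0c for mapping to GRCh37 and featureCounts 1.6.3 for counting read pairs that mapped once. The deposited table holds these raw counts for 57163 genes, not normalized. Sources used here do not give the strand setting, and values of antisense or overlapping genes are therefore uncertain. Extraction is given as miRNeasy in the methods and TRIzol in the labels.

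Counts were scaled by TMM (edgeR 4.0.16, R 4.3.3), and log2 ratios took a prior count of 2. Symbols came from GENCODE v44lift37 (14236 of the measured genes had one) and conserved lncRNAs from the study's list. Calls rest on fold, range and interval rules, with no p-value, since each condition had 1 library. The code that makes them was checked on simulated counts. Ratios have exact 95% intervals.

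Named genes were the 12 protein-coding genes and up to 4 lncRNAs per direction with a symbol and the largest margin past the nearest library (ranked with a prior count of 5), the genes described as repressed, and up to 3 members per direction of each of 32 lists. Others named, such as SNHG7 or HOTAIR, and the genes of at least 20 CPM were chosen after their values were seen. Members, lists and rules were chosen with earlier results of these data known. Alternatives were library totals, DESeq2 1.42.0 size factors, other filters, prior counts, margins and references, edgeR's exact test at an assumed BCV and leaving out each library.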

Additional observations from a re-analysis of the deposited data

How the results depend on the processing

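No paired analysis was possible because each condition had 1 library. The counts of genes 2-fold higher and lower than in the control library (378 and 112) were 1859 and 701 with no filter beyond 1 count and 33 and 2 at 5 CPM or more. They were 39 and 202 against the average of the 7 other TF libraries. Against the average of the 4 control TF libraries 161 were higher and 128 lower, and with a prior count of 5, 258 were higher and 57 lower. edgeR's exact test gave 31 higher and 0 lower at an assumed BCV of 0.2, and 0 and 0 at 0.4. The counts past the 1.5-fold margin above and below (22 and 44) were 607 and 132 without a filter, 4 and 0 at 5 CPM or more, 14 and 22 with a prior count of 5, 2 and 10 at a 2-fold margin, 1107 and 1660 at no margin, and 84 and 68 by the counting interval. Without the NRF1 and EGR1 libraries 88 were above. Leaving out each of the 8 other libraries in turn gave 22 to 49 above, the highest without NRF1, and 46 to 59 below. The cause of these shifts was not tested, other than that fewer or more genes were counted under another filter. Of 444 ratios of named genes to the nearest library under other scalings and prior counts, 12 dropped under the margin. The 444 include genes that were never past it, such as SDHB and HK1, so the 12 are a larger share of the ratios that could drop. Of 111 named genes outside the range 17 were inside it with library totals and 5 with DESeq2 size factors. The ratio to the control library, near 0, changed sign for 7 named genes with library totals (MCAM, ZBTB39, PHLDA3, NDUFS7, CELSR3, INA and SNHG15), and for 2 of them, PHLDA3 and INA, with DESeq2 size factors too. The interval rule, the genes of at least 20 CPM and the scaling of the bare range were chosen after seeing the data. Depth limits the lower genes most, since 37 of 44 had under 10 counts.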
